A study of Homo sapiens with 24 samples.

Results

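The 77 protein-coding genes of the cytosolic ribosome were followed in 4 human lung cancer cell lines, of 60623 genes listed in at least 1 of the tables. Members were chosen by symbol: RPSA, RPLP0, RPLP1, RPLP2, and every RPL or RPS symbol with a number and an optional A or X. Pseudogenes, L-suffixed paralogs, the RPS6 kinases and Y-linked genes were left out. The set holds 46 genes of the large subunit and 31 of the small subunit. All 77 were listed in every table, and all 77 passed the filter on low values in every line (10 or more normalized counts on average in either group).

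Ribosomal proteins coat and fold the ribosomal RNA into a large and a small subunit, and a ribosome needs them in near-equal amounts. Their mRNAs are among the most abundant in growing cells. Most of them begin with a C followed by a run of pyrimidines, the terminal oligopyrimidine tract, through which LARP1 and the kinase MTOR set how strongly they are translated. Free RPL5 and RPL11, which travel with the smallest ribosomal RNA of the large subunit, bind MDM2 when ribosome assembly is disturbed. MYC is known to promote transcription of ribosomal protein genes and of the factors that assemble ribosomes.

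Strand-specific RNA sequencing gave 24 libraries in 8 groups of 3. From the non-small cell lung cancer lines A549 and H1299 came libraries with HEPACAM2 overexpressed (OE) and wild-type Control libraries. From DMS454 and H1694, which model the neuroendocrine small cell form, came libraries labelled CRISPR, with a HEPACAM2 knockdown as genotype, and libraries labelled Control, with a wild-type genotype. The study's design compares the effect of raising or lowering this cell surface protein of the immunoglobulin family; the sources used here give no promoter, guide, clone or culture time. Values below are the deposited counts divided by size factors (normalized counts), changes are log2 fold changes with standard errors from limma on log2(normalized count + 1), and a gene is called at a Benjamini-Hochberg adjusted p under 0.05 over all genes tested. Nothing in the sources used here says how separate the cultures behind the 3 libraries of a group were, so p-values measure the spread between these libraries.

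Library totals ran from 12704476 to 31770858 reads. HEPACAM2 was read at 6074, 5864 and 6084 normalized counts in A549 OE libraries, against 1.1, 0 and 0 in Control libraries, and at 27257, 25000 and 23710 in H1299 OE libraries, against 3.49, 3.07 and 2.08 in Control libraries. In DMS454 the libraries labelled CRISPR held 11460, 11256 and 10844 counts, against 6430, 6543 and 6677 in those labelled Control. In H1694 they held 10124, 10545 and 10399, against 3433, 3551 and 3688. HEPACAM2 mRNA was therefore higher in the libraries labelled CRISPR, against the knockdown in their genotype label, and every direction below for these lines follows the labels only. In the deposited tables the columns of the libraries labelled CRISPR carry the letters pL and those labelled Control the letter G, and the authors' fold changes take the libraries labelled Control as numerator. Whether the names of the arms were exchanged was not tested; an exchange would turn every sign given for DMS454 and H1694. Summed neuroendocrine markers reached at least 157327 counts in DMS454 and 48343 in H1694, and at most 189 in A549 and 99.9 in H1299, while the epithelial markers of H1694 summed to between 155 and 222 counts. Blood markers summed to at most 14.3 counts in any library. A few libraries stood apart from the others of their group by a chi-square statistic per gene over recovered reads. It was 23.5 and 26.9 for H1299 OE library 1 against its group, 18.5 and 24.5 for H1299 Control library 1, 14.4 and 18.8 for DMS454 library 3 labelled CRISPR, and 17.1 and 23.8 for H1694 library 1 labelled CRISPR. The other pairs within groups lay between 1.72 and 6.58. In bulk libraries, fewer cells of a type and less RNA per cell cannot be told apart.

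Numbered pseudogenes exist for 76 of the 77 members in GENCODE 29, 1132 in all, and reads of near-identical copies may be split or lost. Another protein-coding gene on the same strand overlaps 9 members. Per kilobase of coding sequence and averaged over the lines, RPL41, the shortest ribosomal protein, stood highest at 190515 normalized counts, ahead of RPLP1 of the stalk that recruits elongation factors (80759), RPL37A (80114) and RPS27 (77280). The coding sequence of RPL41 is 78 bases long, and reads of its untranslated ends are included in this level. Among the lowest were RPS10 (68.8), RPL36A (719) and RPL17 (1324), and each of these 3 overlaps a same-strand gene: RPS10-NUDT3, RPL36A-HNRNPH2 and RPL17-C18orf32. Their counts, and those of the other overlapped members, are uncertain as levels of the gene. The tables were normalized separately, so these averages order genes and do not compare lines.

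The first bases of the transcripts were read from RefSeq promoter entries (GRCh38.p14), which matched 62 of the 77 members. A C followed by at least 4 bases that are each C or T began the listed start in 46 of those 62 genes (74.2%), against 5.14% of the 27305 genes in the promoter table. The windows below, on the strand with the sequence of the mRNA, run from 10 bases before the listed start to 20 bases from it. Their tract is in capitals where one begins at the start. They are shown for members with large changes in the sections that follow, first 6 with a tract and then 4 without one at any listed start.
RPS27: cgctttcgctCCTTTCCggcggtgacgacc
RPL11: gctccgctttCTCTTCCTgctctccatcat
RPS12: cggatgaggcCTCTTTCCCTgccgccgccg
RPSA: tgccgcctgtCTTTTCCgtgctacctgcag
RPS13: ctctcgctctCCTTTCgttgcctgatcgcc
RPS21: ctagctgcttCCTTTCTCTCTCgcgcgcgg
RPL15: tggggcctgctggaggagcttcacgcagtc
RPL32: ggtgacccttgacctcctgggatcgcatct
RPS26: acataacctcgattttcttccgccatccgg
RPS29: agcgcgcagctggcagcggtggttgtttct

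The windows with a tract lie at chr1:153990752-153990781 (RPS27, plus strand), chr1:23691796-23691825 (RPL11, plus), chr6:132814559-132814588 (RPS12, plus), chr3:39406710-39406739 (RPSA, plus), chr11:17077648-17077677 (RPS13, minus) and chr20:62387093-62387122 (RPS21, plus). Those without one lie at chr3:23916535-23916564 (RPL15, plus), chr3:12840431-12840460 (RPL32, minus), chr12:56041908-56041937 (RPS26, plus) and chr14:49598691-49598720 (RPS29, minus). A missing tract says only that these letters do not begin the listed start, and members with and without it occur among the genes that rose.

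In A549 cells overexpressing HEPACAM2, ribosomal protein genes moved upward by small amounts. Of the 77 members, 35 rose (45.5%) and 3 fell (3.9%), while 22.5% of the 16707 genes tested rose and 21.9% fell. The median log2 fold change was 0.08 over the members and -0.00 over all genes, and the members spanned -0.15 to 0.36. No member moved by 0.5 or more on the log2 scale, and the median size of change was 0.09 over members, against 0.21 over all genes. Both subunits took part, with 21 of 46 large-subunit and 14 of 31 small-subunit genes higher. The groups did not overlap for 35 members (45.5%), and 51.8% of all tested genes had such separation.

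**Figure D1:**
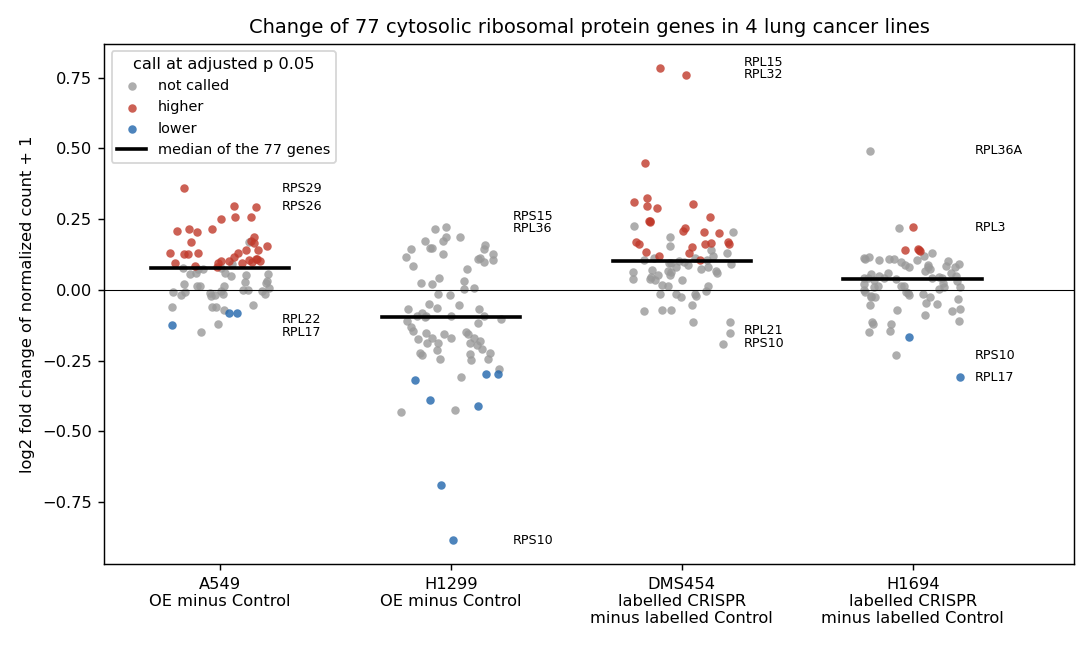
Log2 fold change of each of the 77 ribosomal protein genes (vertical axis, log2 of normalized count + 1) in the 4 lines (horizontal axis, spread sideways for visibility), coloured by call, with some of the highest and lowest genes of each line named beside their column. Red points gather above 0 in A549 (35 genes) and DMS454 (27 genes), RPS10 lies lowest in H1299, and RPL15 and RPL32 stand above the rest in DMS454.

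Several of the larger rises in A549 are given here. RPS29, a zinc-binding protein of the small subunit, was read at 7006, 8271 and 8156 normalized counts in OE libraries, against 6144, 6471 and 5632 in Control libraries. Every OE library lay above every Control library, and the change was 0.36 ± 0.08 (SE, n = 3 each; limma, adjusted p = 0.0078). RPS26, which lines the channel where mRNA leaves the ribosome, had 6668, 6691 and 6207 counts in OE libraries, against 5339, 5316 and 5289 in Control libraries. Its groups were also apart, with a change of 0.29 ± 0.04 (limma, adjusted p = 4.7e-09). RPL11 had 13238, 13034 and 13199 counts in OE libraries, against 10595, 11374 and 10308 in Control libraries, a change of 0.29 ± 0.04 (limma, adjusted p = 2.6e-09). RPS27 rose by 0.26 ± 0.04 and RPSA, the small-subunit protein also described as a laminin receptor precursor, by 0.21 ± 0.03 on the log2 scale, each with groups that did not overlap. RPL5, the partner of RPL11, rose by 0.11 ± 0.03, with 14189, 13836 and 14160 counts in OE libraries against 13139, 13430 and 12569 in Control libraries (limma, adjusted p = 0.0081).

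The 3 members that fell in A549 belong to the large subunit. RPL22, whose paralog RPL22L1 can take its place in the ribosome and which overlaps another gene in the annotation, had 2651, 2783 and 2330 counts in OE libraries, against 2841, 2789 and 2815 in Control libraries. The highest OE library lay just under the lowest Control library, and the change was -0.13 ± 0.05 (limma, adjusted p = 0.031). RPL29 and RPL13 each changed by -0.08 ± 0.03 (adjusted p = 0.049 and 0.036). Each of these falls lost its call in several of the fits that left out 1 library. RPL22L1 rose by 0.23 ± 0.05, with a mean of 1705 ± 68.7 counts in OE libraries and 1455 ± 35.4 in Control libraries (SD, n = 3 each; limma, adjusted p = 4.4e-05). Of 6 tested paralogs outside the rule, 4 rose and 1 fell. RPS27L was among those that rose, as RPS27 itself did. The count of member rises was 23 without Control library 3. That library had the highest mitochondrial share of its line (6.57% of reads, against 4.69% to 5.56% in the other 5 libraries). Over all genes, the fits that left out 1 library called 3264 to 3633 higher. Epithelial markers were lower for 4 of 4 genes in OE libraries, summing to 129803 to 135696 counts, against 160409 to 169100 in Control libraries; their part in the rises was not tested.

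Ribosome biogenesis genes and many initiation factors also rose in A549 OE cells, while other lists around the family were mixed. Of 20 tested elongation factors and other mRNAs known for a terminal oligopyrimidine tract, 6 rose and 4 fell, with a median of 0.01. Of 10 import and assembly chaperones of ribosomal proteins, 4 rose and 1 fell. Of 38 ribosome biogenesis genes, 29 rose and none fell by limma, also at an unadjusted p under 0.05 (0 genes) and by edgeR and DESeq2 (0 genes each), with a median log2 fold change of 0.26. RRS1, an assembly factor of the large subunit, averaged 1779 ± 61.4 counts in OE and 1157 ± 44.5 in Control libraries, a change of 0.62 ± 0.05 (limma, adjusted p = 1.3e-15). BOP1, of the same assembly path, rose by 0.51 ± 0.04. Of 26 initiation factors and regulators of translation, 15 rose and 3 fell. EIF6, which keeps the subunits apart, rose by 0.35 ± 0.04, and EIF4A2, an RNA helicase, fell by 0.56 ± 0.04 on the log2 scale. Among 77 tested mitochondrial ribosomal proteins 18 rose, a share close to the 22.5% of all genes, and 6 fell. MYC had 2825, 2908 and 3053 counts in OE libraries, against 2271, 2253 and 2299 in Control libraries, a change of 0.36 ± 0.04 (limma, adjusted p = 2.3e-10). FAU and RACK1, whose products sit on the small subunit but whose symbols lie outside the rule, had changes of 0.00 ± 0.04 and 0.02 ± 0.03 and did not pass the test.

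In H1299 cells overexpressing HEPACAM2, 7 members fell and 0 rose by limma, and 0 members were higher at an unadjusted p under 0.05, by edgeR or by DESeq2. The share that fell was 9.09%, against 15.3% of the 16192 genes tested, and 13.5% of all genes rose. The median log2 fold change was -0.09 over the members and 0.00 over all genes. Of the 7 falls, 6 were among the 31 small-subunit genes (19.4%), a share near that of all genes. The other was among the 46 large-subunit genes (2.17%). The groups did not overlap for 9 members (11.7%), against 43.3% of all tested genes. The count of falls was 21 without Control library 1 and 15 without OE library 1. It was 3 without OE library 3, and 2 without OE library 2, Control library 2 or Control library 3. Over all genes, the fits that left out 1 library called 1389 to 2823 lower. A move of the members cannot be told from that change in calling. Mesenchymal markers were higher for 3 of 4 genes, summing to 104092 to 110795 counts in OE libraries, against 58996 to 64132 in Control libraries, and their part in the changes was not tested. The nuclear RNAs MALAT1 and NEAT1 took 0.147%, 0.0932% and 0.101% of reads in OE libraries, against 0.0704%, 0.0782% and 0.0869% in Control libraries, without overlap, and their part was not tested either.

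RPS26 fell to 4703, 5148 and 5633 normalized counts in OE libraries, against 7215, 6310 and 6709 in Control libraries, a change of -0.39 ± 0.09 (SE, n = 3 each; limma, adjusted p = 0.011). RPL17, which lines the tunnel of the nascent peptide, had 735, 817 and 962 counts in OE libraries, against 1268, 1018 and 1050 in Control libraries, a change of -0.41 ± 0.12 (limma, adjusted p = 0.034). For both genes the highest OE library stayed under the lowest Control library. RPS10 had 58.9, 27.9 and 35.1 counts in OE libraries, against 62, 70.5 and 86.3 in Control libraries, a change of -0.88 ± 0.28 at a low level (limma, adjusted p = 0.043). The OE libraries again lay under the Control libraries, though by little. RPS13 had 6568, 5697 and 5968 counts in OE libraries, against 6637, 7563 and 8259 in Control libraries, a change of -0.30 ± 0.10 (limma, adjusted p = 0.045). RPS12 and RPSA changed by -0.32 ± 0.10 and -0.30 ± 0.09 (limma, adjusted p = 0.048 and 0.035). RPS10, RPL17 and RPS13 are among the members that overlap another gene. Each of the falls named here lost its call in at least 1 of the alternatives tried for the line.

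**Figure D2:**
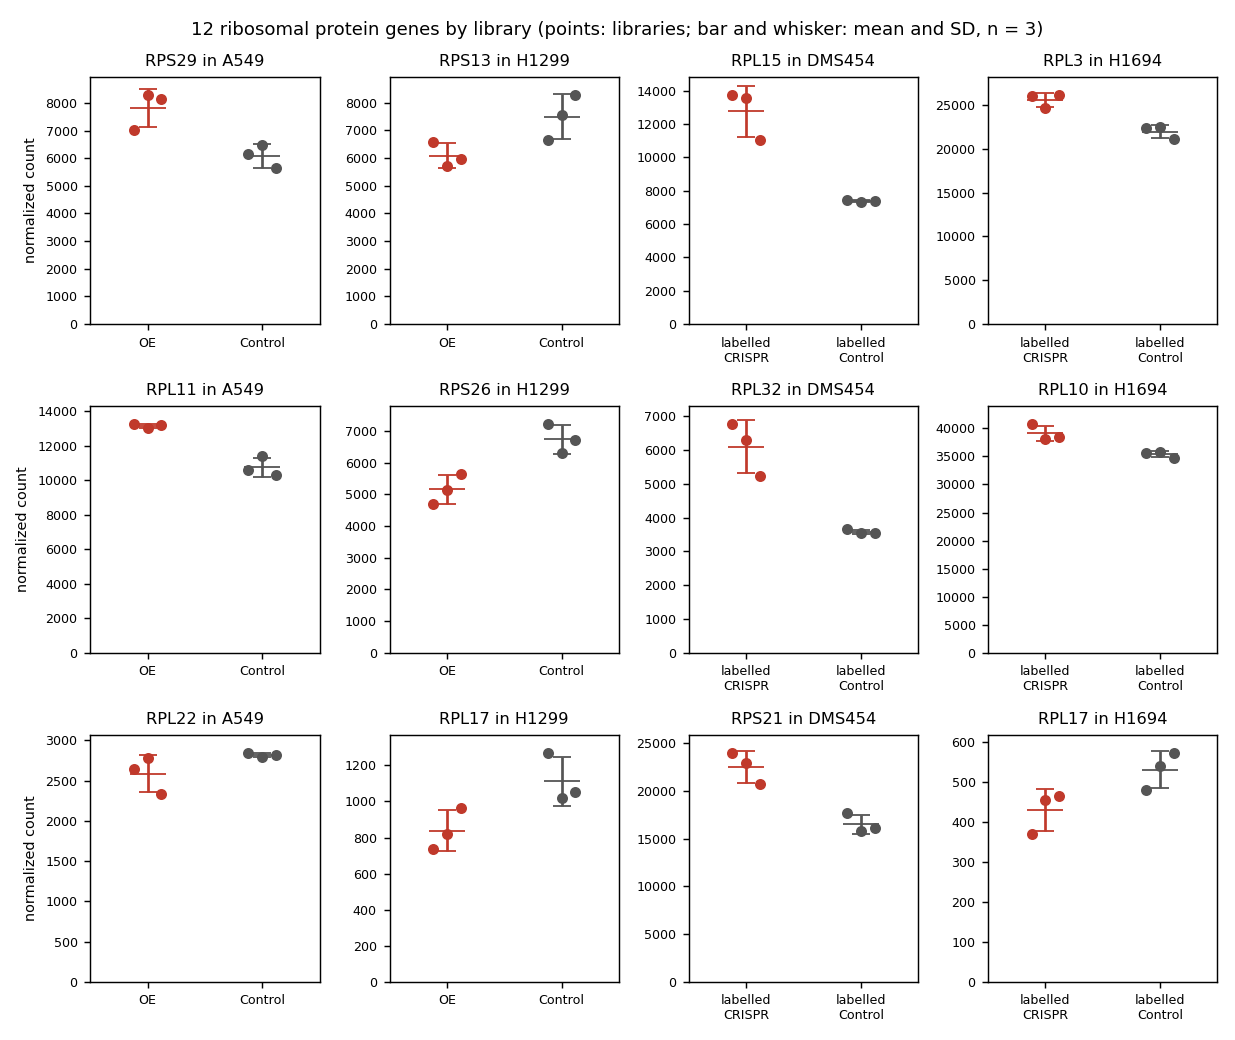
Normalized counts of 12 ribosomal protein genes by library (vertical axes start at 0), 3 genes for each of A549, H1299, DMS454 and H1694 from left to right, with OE or labelled CRISPR libraries in red left of Control libraries in grey. Points are libraries and bars are mean and SD (n = 3); the groups are apart in every panel.

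The libraries numbered 1 stood apart in H1299, and this bears on the whole family. RPLP1 had 18575, 26498 and 28319 counts in OE libraries 1, 2 and 3, against 26818, 18213 and 19392 in Control libraries 1, 2 and 3. RPL13 had 22189, 32295 and 32297 in OE libraries, against 31821, 22209 and 22890 in Control libraries. In both genes library 1 of each group lay with libraries 2 and 3 of the other group. The mean GC content per read was 48.8% in OE library 1 and 49.9% in OE libraries 2 and 3, against 49.6% in Control library 1 and 48.6% and 48.5% in Control libraries 2 and 3. HEPACAM2 did not follow this split, being high in all 3 OE libraries.

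Without both libraries numbered 1, the H1299 fit called 23 members higher and 45 lower, where 27.1% of all genes were higher and 28% lower. The 7 falls above were all among the 45. Members called higher in this fit had a median transcript GC content of 56.4%, and those called lower 46.6%. Across the 77 members, log2 fold change and GC content had a Pearson r of 0.65 in this fit, a description over genes that share libraries. With all 6 libraries r was 0.45 over the 75 members other than RPL15 and RPL32, and -0.16 in A549, -0.02 in DMS454 and -0.09 in H1694. Removing each library's GC trend gave 3 members higher and 11 lower. Counts over all genes for that fit are not given here. The share of GC content and of the libraries numbered 1 in the H1299 changes was not tested further.

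**Figure D3:**
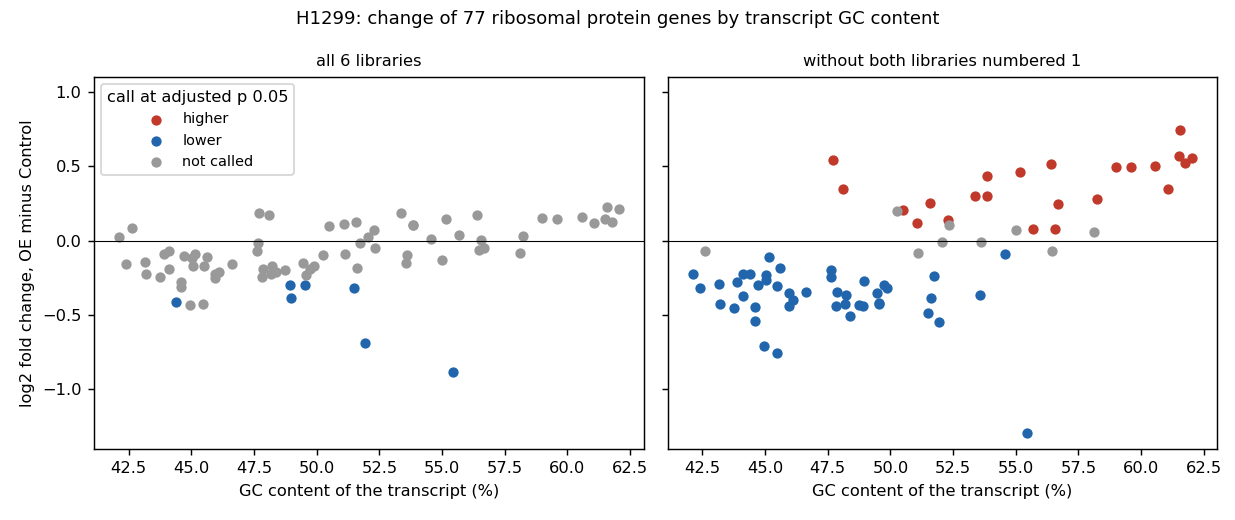
Log2 fold change of the 77 ribosomal protein genes in H1299 (vertical axis) by GC content of the transcript in percent (horizontal axis), with all 6 libraries at left and without both libraries numbered 1 at right. With 4 libraries, the 23 genes called higher lie mostly at high GC content (median 56.4%) and the 45 called lower at low GC content (median 46.6%).

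Around the family, assembly genes fell in H1299 OE cells by more than the ribosomal protein genes did. Of 38 ribosome biogenesis genes, 34 fell, with a median log2 fold change of -0.68, and none rose by limma, by edgeR, by DESeq2 or at an unadjusted p under 0.05 (0 genes each). NIP7, needed for maturation of ribosomal RNA, averaged 948 ± 72.6 counts in OE and 2152 ± 168 in Control libraries, a change of -1.18 ± 0.09 (SD and SE, n = 3 each; limma, adjusted p = 9.9e-05). LTV1, an assembly factor of the small subunit, changed by -1.09 ± 0.12. Of 26 initiation factors 15 fell, EIF3B among them by 0.67 ± 0.07 on the log2 scale, and 8 of 10 import and assembly chaperones of ribosomal proteins fell. Of 77 mitochondrial ribosomal proteins 32 fell. NPM1, a nucleolar chaperone, had 33419, 28157 and 28740 counts in OE libraries, against 48813, 57800 and 59538 in Control libraries, a change of -0.88 ± 0.10 (limma, adjusted p = 5.3e-04). MYC fell to 2127, 2678 and 2418 counts in OE libraries, against 4035, 3435 and 3468 in Control libraries, a change of -0.60 ± 0.10 (limma, adjusted p = 0.0032). The paralogs RPL22L1, RPL26L1 and RPL7L1 fell by 1.27 ± 0.13, 0.58 ± 0.09 and 0.55 ± 0.08 on the log2 scale, and each held its call in all alternatives for the line.

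In DMS454, 27 members were higher in the libraries labelled CRISPR (35.1%) and 0 were lower by limma, where 9.15% of the 18868 genes tested were higher and 9.72% lower. At an unadjusted p under 0.05, 3 members were lower, and 0 were by edgeR or DESeq2. The median log2 fold change was 0.10 over the members and 0.00 over all genes. The groups did not overlap for 44 members (57.1%), 41 of them higher in the libraries labelled CRISPR, against 36.6% of all tested genes. Both subunits were represented, with 17 of 46 large-subunit and 10 of 31 small-subunit genes higher. The count was 12 without library 1 labelled CRISPR, and 11 without library 2 or library 3 labelled Control. Without library 3 labelled CRISPR, the library that stood apart from its group, 39 were higher and 6 lower. Over all genes, the fits that left out 1 library called 946 to 3156 higher and 1016 to 3445 lower. A move of the members cannot be told from that change in calling.

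The large-subunit genes RPL15 and RPL32 led, RPL15 being mutated in some cases of Diamond-Blackfan anaemia. RPL15 was read at 13722, 13551 and 11017 normalized counts in libraries labelled CRISPR, against 7440, 7300 and 7368 in those labelled Control. RPL32 was read at 6764, 6311 and 5238, against 3652, 3547 and 3555. Every library labelled CRISPR lay far above every one labelled Control, and library 3 was the lowest of its group in both genes. The changes were 0.79 ± 0.08 for RPL15 (SE, n = 3 each; limma, adjusted p = 2.3e-04) and 0.76 ± 0.08 for RPL32 (limma, adjusted p = 3.5e-04), and both kept their calls in all alternatives. RPS21, a small-subunit protein, had 23955, 22957 and 20697 counts in libraries labelled CRISPR, against 17649, 15778 and 16087 in those labelled Control, a change of 0.45 ± 0.06 (limma, adjusted p = 4.8e-04). RPS13 had 13367, 12012 and 12476 counts, against 10233, 9808 and 10145, a change of 0.33 ± 0.04 (limma, adjusted p = 3.2e-04). RPLP2 of the stalk changed by 0.30 ± 0.05, whereas its partners RPLP0 and RPLP1 had changes of -0.02 ± 0.04 and 0.07 ± 0.04 that did not pass the test.

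RPL15 (ENSG00000174748, chr3:23916545-23924374, GRCh38) and RPL32 (ENSG00000144713, chr3:12834485-12841588) are the only members in the first 25 Mb of chromosome 3, a segment picked after its values were seen. The 84 other coding genes tested there in DMS454 had a median log2 fold change of 0.66, with 68 higher and 1 lower. The 144 coding genes tested in the next 25 Mb had a median of 0.02, with 6 higher and 4 lower, and the members RPSA and RPL14 there had changes of -0.05 and 0.09. In H1299, A549 and H1694 the first segment had medians of 0.00, 0.01 and 0.03. Of 547 bins of 5 Mb with at least 5 genes in DMS454, 7 had a median of 0.5 or more, and 5 of these make up the segment. MRPS25, a mitochondrial ribosomal protein at -8.87 Mb from RPL15 (negative toward the chromosome start) and inside the segment, changed by 0.72 ± 0.07 (limma, adjusted p = 2.6e-05). Over the 77 members, change and the median change of coding genes within 3 Mb had a Pearson r of 0.76 in DMS454, and 0.56 without RPL15 and RPL32. The same r was 0.07 in A549, 0.25 in H1299 and -0.11 in H1694, each a description over genes that share libraries. DNA copy number was not measured here, and its part in these changes was not tested.

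**Figure D4:**
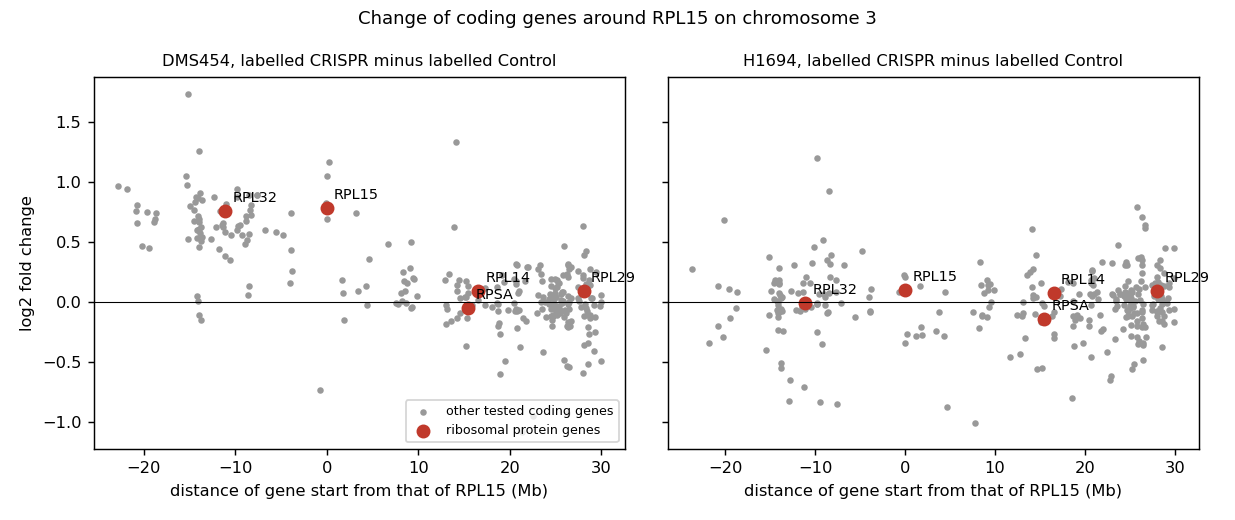
Log2 fold change of coding genes (vertical axis, labelled CRISPR minus labelled Control) by distance in Mb of the gene start from that of RPL15 on chromosome 3 (horizontal axis), in DMS454 at left and H1694 at right, with ribosomal protein genes in red. In DMS454 the genes left of RPL15 centre near 0.66 and those beyond 25 Mb of the chromosome near 0.02, while in H1694 both sides centre near 0.

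Ribosome biogenesis genes in DMS454 had 14 of 38 higher and 2 lower in the libraries labelled CRISPR, with a median log2 fold change of 0.14. GAR1, a component of small nucleolar ribonucleoproteins, averaged 1720 ± 68.0 counts in libraries labelled CRISPR and 1304 ± 52.5 in those labelled Control, a change of 0.40 ± 0.05 (SD and SE, n = 3 each; limma, adjusted p = 3.2e-04). Of 26 initiation factors 7 were higher and 1 lower, EIF6 among the higher ones at 0.44 ± 0.04. Of 76 tested mitochondrial ribosomal proteins 3 were higher and 2 lower. MYC changed by -0.25 ± 0.04, with 3140, 3231 and 3026 counts in libraries labelled CRISPR against 3598, 3730 and 3826 in those labelled Control (limma, adjusted p = 0.0024). Histone mRNAs differed in the same samples, with a summed level of 2114 to 2297 counts in libraries labelled CRISPR, against 2825 to 2953 in those labelled Control. Neuroendocrine markers summed to 157327 to 165712 counts in libraries labelled CRISPR, against 168310 to 170421 in those labelled Control. Of the 8 genes, 2 were higher and 2 lower. Mesenchymal markers summed to 8181 to 8893 counts, against 6262 to 6835, with 1 of 3 tested genes higher. The part of histone mRNAs and of these markers in the changes above was not tested.

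In H1694, 5 members were higher in the libraries labelled CRISPR and 2 lower (6.49% and 2.6%), where 8.73% of the 17780 genes tested were higher and 8.9% lower. The median log2 fold change was 0.04 over the members and -0.00 over all genes, and 75 of the 77 members changed by less than 0.25 on the log2 scale. RPL3, which reaches the peptidyl transferase centre, had 26075, 24707 and 26115 normalized counts in libraries labelled CRISPR, against 22345, 22468 and 21125 in those labelled Control. The groups were apart, with a change of 0.22 ± 0.04 (SE, n = 3 each; limma, adjusted p = 8.5e-04), a call kept in all alternatives. RPL10, the last protein to join the large subunit, had 40725, 38147 and 38409 counts, against 35632, 35741 and 34810, a change of 0.14 ± 0.04 (limma, adjusted p = 0.012). RPL5, RPL19 and RPS6, the target of S6 kinases, each changed by 0.14 ± 0.04. RPS12 had 7251, 7397 and 7641 counts in libraries labelled CRISPR, against 8139, 8516 and 8353 in those labelled Control, a change of -0.17 ± 0.04 (limma, adjusted p = 0.0072). RPL17 had 370, 454 and 466 counts, against 481, 541 and 572, a change of -0.31 ± 0.09 (limma, adjusted p = 0.035). Without library 1 labelled CRISPR, which stood apart from its group, 16 members were higher and 9 lower. Only 1 was higher without library 1 or library 3 labelled Control, and 3 were higher and 0 lower without library 2 labelled Control. Over all genes, the fits that left out 1 library called 918 to 2253 higher and 899 to 2260 lower. A move of the members cannot be told from that change in calling. Endothelial markers summed to 3670 to 3806 counts in libraries labelled CRISPR, against 3119 to 3188 in those labelled Control, with 1 of 3 higher. Fibroblast markers summed to 969 to 1136 counts, against 1289 to 1377, with the 1 tested gene lower. Of 7 tested neuroendocrine genes 2 were lower, and of 3 tested epithelial genes 1 was lower. Of 3 tested mesenchymal genes 1 was higher. The part of these markers was not tested. CDKN1A, a cell cycle inhibitor, fell to 3099, 2916 and 2647 counts in libraries labelled CRISPR, against 7680, 7553 and 7388 in those labelled Control (limma, adjusted p = 1.1e-10), a change of -1.39 ± 0.05. Among the 10 tested genes of the MYC family and p53 targets, CDKN1A included, 2 were higher and 3 lower. RPS27L, a paralog of RPS27, changed by -0.38 ± 0.07, while RPS27 itself had 0.04 ± 0.08. Of 38 ribosome biogenesis genes 6 were higher and 1 lower, with a median log2 fold change of 0.04. Of 19 tested elongation factors and other mRNAs known for a terminal oligopyrimidine tract, 4 were higher and 0 lower by limma.

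Across the lines, 19 members were called in no line, 38 in 1 line, 19 in 2 lines, 1 in 3 lines and 0 in all 4. The same counts over all genes are not given here. No member was higher in 3 lines, 10 were higher in both A549 OE cells and DMS454 libraries labelled CRISPR, and 4 rose in A549 and fell in H1299. RPS26, RPS12 and RPSA were among those 4. Members higher in both A549 and DMS454 were 13% of the family, against 3.51% of the 15019 genes tested in both lines. Of the 27 members higher in DMS454, 37% rose in A549, against 45.5% of all 77 members. Over all genes tested in both lines, 35.5% of those higher in DMS454 rose in A549, close to the share of members. Members that rose in A549 and fell in H1299 were 5.19% of the family, against 7.18% of the 14578 genes tested in both lines. Tested directly, the change in A549 minus that in H1299 was positive for 18 members (23.4%) and negative for 0 by limma. Of 14578 genes, 22.7% were positive, close to the share of members, and 18.5% negative. At an unadjusted p under 0.05, 1 member was negative, and 1 was by edgeR. The difference was 0.68 ± 0.10 for RPS26 on the log2 scale (SE; limma, adjusted p = 6.4e-05). RPS12 and RPSA differed by 0.52 ± 0.11 and 0.51 ± 0.09. The positive count was 32 without H1299 OE library 1 and 31 without H1299 Control library 1. It was 8 without A549 OE library 1, A549 Control library 3, H1299 OE library 2, or H1299 Control library 2 or 3. Over all genes, 5228 to 6818 differed in either direction in the fits that left out 1 library.

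Between the small cell lines, the change in DMS454 minus that in H1694 was positive for 11 members (14.3%) and negative for 2 (2.6%). Of 15460 genes, 10.4% were positive and 9.81% negative (20.2% in either direction). RPL32 differed by 0.77 ± 0.10 and RPL15 by 0.68 ± 0.09 (SE; limma, adjusted p = 1.8e-04 and 8.0e-05). RPS21 differed by 0.46 ± 0.10 and RPL27A by 0.40 ± 0.06. RPL10 and RPL7A had negative differences of -0.22 ± 0.05 and -0.17 ± 0.06. The positive count was 6 without library 2 labelled Control of either line. It was 7 without DMS454 library 3 labelled Control and 17 without H1694 library 1 labelled CRISPR. Over all genes, 2405 to 4168 differed in either direction in the fits that left out 1 library.

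As a summed share of all gene reads, the 77 members took 7.16%, 7.08% and 6.92% of A549 OE libraries, against 6.89%, 6.89% and 6.64% of Control libraries. The A549 groups did not overlap. With mitochondrially encoded genes left out of the totals they did, at 7.53%, 7.46% and 7.26% in OE libraries, against 7.25%, 7.29% and 7.11% in Control libraries. In H1299 they took 7.59%, 7.54% and 8.02% of OE libraries, against 7.53%, 7.68% and 7.56% of Control libraries, and the groups overlapped. In DMS454 the share was 5.26%, 5.20% and 5.0% in libraries labelled CRISPR, against 4.91%, 4.59% and 4.65% in those labelled Control, again without overlap, and the groups were also apart without mitochondrially encoded genes. In H1694 it was 4.52%, 4.24% and 4.52%, against 4.34%, 4.55% and 4.43%, with overlap. Mitochondrially encoded genes took 2.73% to 6.57% of a library and enter the same totals. Reads of ribosomal protein pseudogenes took at most 0.125% of any library.

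**Figure D5:**
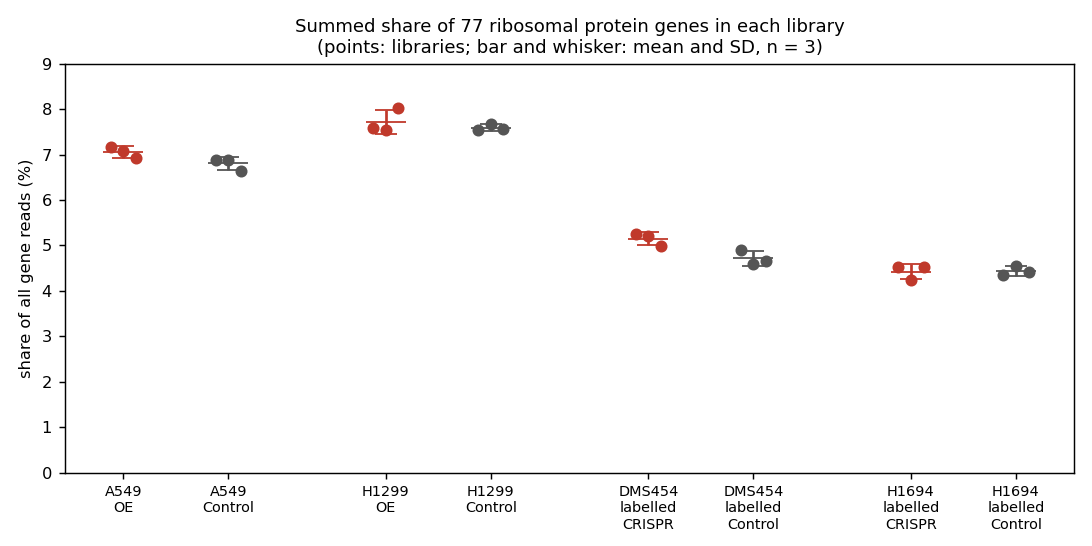
Summed share of the 77 ribosomal protein genes in all gene reads of each library (vertical axis, percent, from 0), by line and group (horizontal axis), with OE or labelled CRISPR libraries in red left of Control libraries in grey. Points are libraries and bars are mean and SD (n = 3); shares lie between 4.24% and 8.02%, and the groups are apart in A549 and DMS454, in A549 only while mitochondrially encoded genes are counted in the totals.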

How the data were processed

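Per the submitters' processing notes, CASAVA, FastQC, Trim Galore, STAR and DESeq2 were used with hg38; the sources used here do not give versions, the counter or the annotation. Per the labels, RNA was extracted with RNeasy columns and DNase, and libraries were made with a stranded TruSeq kit. The deposited value per library is a signal, the authors' count divided by a size factor; whole reads were recovered for 100% of values within 0.01. The authors' deposited log2 fold changes, p-values and Wald score were used only for a check: their DMS454 and H1694 changes take the labelled Control libraries as numerator. Tests used limma 3.58.1 in R 4.3.3 (trend, robust) on log2(value + 1) over genes with a mean of at least 10 in 1 group, with Benjamini-Hochberg adjustment. Differences between lines are an interaction over 12 libraries. edgeR 4.0.16 and DESeq2 1.42.0 on recovered reads were alternatives. The fits were tested on simulated data. Annotation was GENCODE 29, joined by ID.

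Members and lists were chosen with earlier results of these data known. Named are HEPACAM2, the 4 largest called rises and falls per line, members called in opposite directions in a pair of lines, the 4 highest and lowest per kilobase, and up to 3 called genes per context list; RPLP0, RPLP2, RPL14, RPL27A, RPL7A, RPS6, FAU and RACK1, and several members outside the line that names them, were named after their values were seen. Single results of a few genes are not reported here. Coding length replaced transcript length for levels, since some annotated transcripts carry long ends.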

Additional observations from a re-analysis of the deposited data

Results flagged for a closer look

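Members named above whose change differed between the lines of a pair, by limma's interaction over 12 libraries, are given here as differences of log2 fold changes. For A549 OE minus H1299 OE changes, RPS26 differed by 0.68 (adjusted p = 6.4e-05), RPSA by 0.51 (6.1e-04), RPS12 by 0.52 (0.0023), RPS29 by 0.59 (0.0027), RPL11 by 0.51 (0.0077), RPS13 by 0.33 (0.026) and RPS27 by 0.45 (0.044). In each of these genes the A549 change was positive and the H1299 change negative. RPS13 was called in H1299 only, and RPS29, RPL11 and RPS27 in A549 only. The difference lost its call in 11 of 16 alternatives for RPS27, in 9 of 16 for RPS13 and in 1 of 16 for RPL11 (with the replicate number as a block), while the others kept it.

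For the labelled CRISPR minus labelled Control changes in DMS454 minus those in H1694, RPL15 differed by 0.68 (adjusted p = 8.0e-05), RPL32 by 0.77 (1.8e-04), RPS21 by 0.46 (0.0064), RPS13 by 0.24 (0.0089), RPS12 by 0.20 (0.019) and RPL11 by 0.21 (0.048). RPL10 differed by -0.22 (0.0034). RPL11 lost this call in 9 of 16 alternatives and RPS12 in 3 of 16, while the others kept it.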

How the results depend on the processing

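The scaling alternatives moved the median of all genes by less than 0.02 on the log2 scale. Of 2007 recomputed values of called named genes, 1798 kept direction and call, 209 lost the call and 0 turned in sign. In A549, 7 of 17 named called members kept their call under every alternative; in H1299 1 of 7, in DMS454 4 of 8 and in H1694 1 of 6. The counts of members that moved by over 1.5 times were these, and the cause was not tested. Where no all-gene count stands beside them, a move of the members cannot be told from a change in calling over all genes. A549 falls numbered 1 with DESeq2 or with the GC trend removed and 0 with the length trend removed. H1299 had 3 higher and 11 lower with the GC trend removed, and 23 higher and 45 lower (all genes 4381 and 4538, member median -0.22) without both libraries numbered 1. DMS454 had 2 lower with no filter. H1694 had 8 higher and 1 lower with the GC trend removed, 11 higher with edgeR, 10 higher with the length trend removed, and 12 higher and 6 lower with no filter. Differences of A549 and H1299 were positive for 10 and negative for 1 with edgeR; those of DMS454 and H1694 were negative for 1 with TMM scaling. The H1694 share difference of -0.0157 percentage points was 0.0241 without mitochondrially encoded genes.

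No pairing by replicate number was seen: deviations of same-numbered libraries correlated at -0.54 to 0.12, with 1 of 12 over 0.1. Of the 12, 3 were best with their own number. The lowest value was that of the H1299 libraries numbered 1, which stood apart as described above. With 3 libraries per group, these values cannot exclude a shared culture or preparation. With the replicate number as a block, members higher and lower numbered 31 and 2 in A549. In H1299 they numbered 0 and 1 (all genes 806 and 828), in DMS454 27 and 0, and in H1694 12 and 4. Positive differences of A549 and H1299 numbered 5. Where no all-gene count is given, a change in the members cannot be told from a change in calling over all genes.

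Leaving out each library in turn gave 23 to 41 members higher and 0 to 2 lower in A549, 0 to 2 and 2 to 21 in H1299, 11 to 39 and 0 to 6 in DMS454, and 1 to 16 and 0 to 9 in H1694. Calls over all genes ran from 3264 to 3633 higher and 3175 to 3375 lower in A549. They ran from 1244 to 2603 higher and 1389 to 2823 lower in H1299. In DMS454 they ran from 946 to 3156 and 1016 to 3445, and in H1694 from 918 to 2253 and 899 to 2260. Differences ran from 8 to 32 positive and 0 to 4 negative members for A549 and H1299 (5228 to 6818 genes), and from 6 to 17 and 1 to 4 for DMS454 and H1694 (2405 to 4168 genes). The share difference ran from -0.0231 to 0.218 percentage points in H1299 and from -0.0647 to 0.0783 in H1694, and the median change of members kept its sign in each line. In the authors' deposited table, 36 members are higher and 1 lower in A549, and 0 and 8 in H1299. In DMS454 24 and 0 are, and in H1694 6 and 2, in the direction used here. The authors' counts over all genes are not given here.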
